A study of Sus scrofa with 102 samples.

Results

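The genes described here encode the machinery of protein synthesis, measured in Longissimus dorsi muscle of backcross pigs. Members were chosen by symbol in the array annotation: cytosolic ribosomal proteins (RPL and RPS), mitochondrial ribosomal proteins (MRPL and MRPS), initiation factors (EIF), elongation factors (EEF) and aminoacyl-tRNA synthetases (ARS), without EIF1AX and EIF1AY. The rule found 48 genes among the 2201 genes with a probe of 1 symbol. Where a gene had more than 1 probe, the probe with the highest mean was used. The 48 genes were 13 cytosolic ribosomal proteins, 13 mitochondrial ribosomal proteins, 9 initiation factors, 1 elongation factor, 7 synthetases and 5 regulators or associated proteins that the symbols also caught.

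The pigs were a backcross of Iberian and Landrace, fed ad libitum, with 1 expression array per animal and 102 animals in all. There were 55 females and 47 males, slaughtered in 3 batches. Batch 1 had 8 females and 6 males aged 171 to 181 days, batch 2 had 36 females and 34 males aged 178 to 184 days, and batch 3 had 11 females and 7 males aged 178 to 181 days. Mean carcass weight was 65.9 kg in batch 1, 73.3 kg in batch 2 and 64.6 kg in batch 3. No pig had been treated, so the comparisons were those of sex, batch and weight. Slaughter batch and anything handled along with it cannot be told apart. All pigs came from 1 cross, and the muscle was a bulk sample, in which fewer cells of a type and less RNA per cell cannot be told apart.

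A ribosome is built of ribosomal RNA and a large set of proteins, and the cytosolic ribosome and the mitochondrial ribosome have separate sets, both coded in the nucleus. Initiation factors bring the small subunit to an mRNA and find its start codon, elongation factors deliver the charged tRNAs, and synthetases charge each tRNA with its amino acid. Muscle holds a large share of the body's protein, and its rate of translation is set by nutrients and growth signals through the mTORC1 kinase complex and through kinases that phosphorylate the initiation factor eIF2.

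The deposited values were log2 intensities, on which a difference of 1 is a doubling. The muscle label was borne out by the 11 measured genes of the skeletal muscle fibre, whose mean level per pig ranged from 11.31 to 13.85, with TPM2 at a mean of 15.15 and TNNT1 at 14.20. Checks of the arrays touch the results in 3 ways. The probe of EIF1AY, a gene of the Y chromosome, was on the male side in 3 arrays labelled female. An array of batch 3 had a median correlation of 0.746 with the others, against 0.820 or more for the arrays kept in the alternative without it. Pig 70, a female of batch 1, had a profile over all probes that correlated at 0.23 with the mean of batch 2 and at most at -0.20 with the means of batches 1 and 3, and the profiles of 9 of the 70 pigs of batch 2 lay nearer to batch 1 or 3 than to their own batch. Results are given with all arrays, and values without pig 70 stand beside some of them. Other batch 1 differences, such as those of RPL17 and MRPS2, also lay further from 0 without it.

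The member values varied about as much as those of the other probes in the data. The authors described a filter for probes with over 20% of values more than 1.5-fold from the median. As 98.0% of these probes met it, the comparison is mostly among probes that vary. The median SD across the 102 pigs was 0.63 for the members and 0.63 over all 5449 probes. RPL24, a protein of the large subunit, had the highest SD of the members at 1.00, and MRPL1, of the mitochondrial large subunit, had the lowest at 0.44. Mean levels ran from 3.02 for RPL13A to 11.02 for EIF1B. For RPL13A the 70 pigs of batch 2 lay between 2.36 and 3.10, near the bottom of the scale.

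The clearest pattern among these genes was between slaughter batches. Most cytosolic ribosomal proteins were higher in batches 1 and 3 than in batch 2, while most mitochondrial ribosomal proteins and initiation factors were lower. In limma with sex and carcass weight, 43 of the 48 members differed among the batches at an adjusted p under 0.05, beside 86.6% of all probes, so the number of members that differed was near the background. In batch 1 against batch 2, 16 members (33.3%) were higher and 23 (47.9%) lower, beside 32.7% and 41.5% of all probes. In batch 3 against batch 2, 17 members (35.4%) were higher and 23 (47.9%) lower, beside 36.2% and 45.3% of all probes. These contrasts share the pigs of batch 2. Their values are given side by side.

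**Figure D1:**
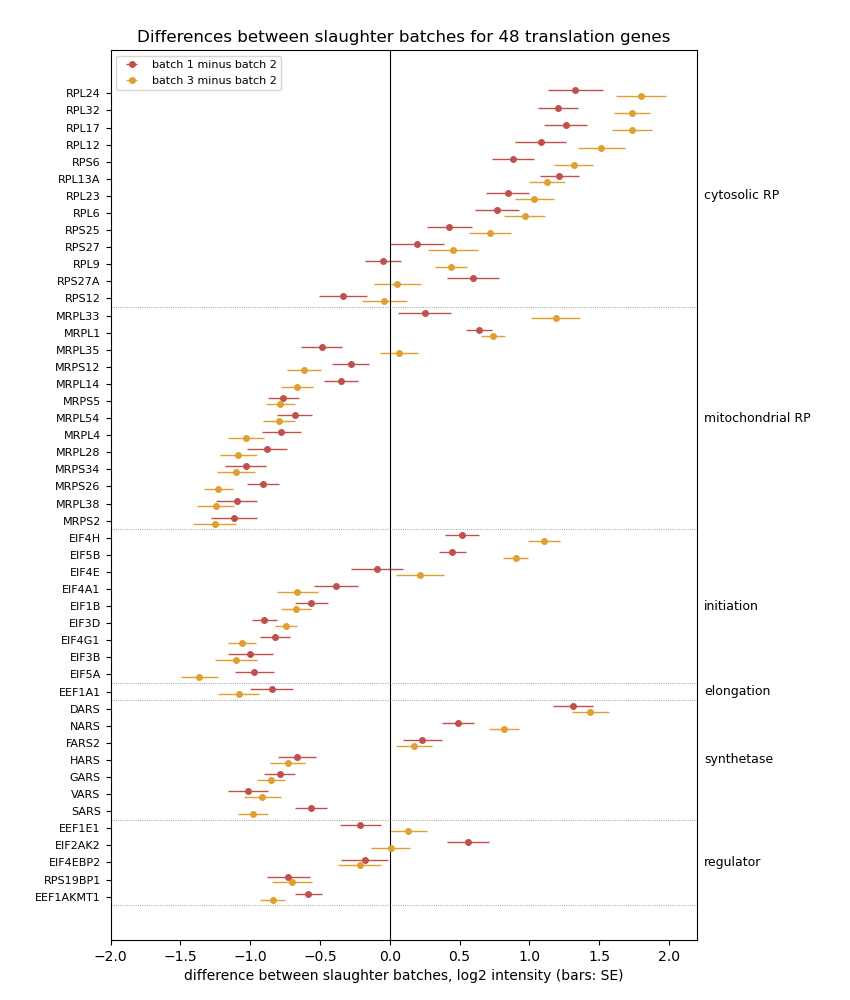
Difference in log2 intensity (horizontal axis) between slaughter batches for each of the 48 genes (vertical axis), grouped by role, from limma with sex and carcass weight; points are estimates and bars are SE. RPL24 stood highest at 1.80 in batch 3 against batch 2, and EIF5A lowest at -1.36.

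The roles split by direction. Of the 13 cytosolic ribosomal proteins, 10 were higher in batch 1 and 11 in batch 3, and 0 were lower in either. RPL13A and RPL32 were among the 9 that were higher in both. For RPL13A, 20.6% of pigs lay more than 1.5-fold from its median, all of them in batches 1 or 3. For RPL32 the share was 36.3%, most of them in batches 1 or 3. RPL13A and RPL32 thus met the authors' filter through those batches, and their places in these counts are not separate support. The share was not split by batch for the other members. The median difference over the 13 was 0.84 for batch 1 and 1.04 for batch 3, beside -0.11 and -0.17 over all probes. Of the 13 mitochondrial ribosomal proteins, 10 were lower in each of the contrasts, 9 were lower in both, and 1, MRPL1, was higher in both. Of the 9 initiation factors, 6 were lower and 2 higher in each contrast. These counts describe the lists beside the background, and no test compared one role with another.

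RPL24 showed the largest difference among the cytosolic ribosomal proteins. Its lowest, median and highest values were 4.92, 7.57 and 8.40 in batch 1, 4.65, 6.32 and 7.26 in batch 2, and 6.85, 8.13 and 8.49 in batch 3. The difference was 1.33 ± 0.20 (SE) for batch 1 (adjusted p = 5.9e-09, limma) and 1.80 ± 0.18 for batch 3 (adjusted p = 1.77e-15), which is 3.48-fold. Of the 18 pigs of batch 3, 17 lay above the highest pig of batch 2, as did 12 of the 14 pigs of batch 1. The low value in batch 1 was pig 70, and without it the batch 1 difference was 1.54.

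RPL32, another protein of the large subunit, had a similar range, and it met the authors' filter mostly through batches 1 and 3, as given above. Its values were 3.47, 6.05 and 7.11 in batch 1, 3.58, 4.73 and 5.24 in batch 2, and 4.99, 6.54 and 7.46 in batch 3. The batch 3 difference was 1.73 ± 0.13 (adjusted p = 2.01e-21, limma), and 17 of 18 pigs exceeded all of batch 2. The batch 1 difference was 1.20 ± 0.14, and 13 of 14 pigs exceeded all of batch 2, while pig 70 lay below all of it. Without pig 70 the batch 1 difference was 1.40.

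RPL17 differed by 1.26 ± 0.15 in batch 1 and 1.73 ± 0.14 in batch 3, and RPL12 by 1.08 ± 0.18 and 1.51 ± 0.17. For RPS6, a protein of the small subunit and the substrate of the S6 kinases, the medians were 7.07 in batch 1, 6.26 in batch 2 and 7.57 in batch 3. Its difference was 0.88 ± 0.15 and 1.32 ± 0.14, and 15 of 18 pigs of batch 3 lay above every pig of batch 2. RPL13A had fitted differences of 1.21 ± 0.14 and 1.13 ± 0.13, and since its batch 2 values lay near the bottom of the scale, their size is uncertain.

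The remaining cytosolic members were less uniform. RPS27A, whose product is a fusion of ubiquitin with a ribosomal protein, was higher in batch 1 (0.59 ± 0.18, adjusted p = 0.00283, limma) and had a difference of 0.06 ± 0.17 in batch 3. RPS12 had -0.33 ± 0.17 and -0.04 ± 0.16, and neither passed the test. RPL23 had 2 probes, and they disagreed. The main probe was 0.84 higher in batch 1 and 1.04 higher in batch 3, whereas the other probe had -0.04 and 0.10 (adjusted p = 0.83 and 0.526), and the residuals of the 2 probes correlated at 0.0034 across pigs. The level of RPL23 is therefore uncertain.

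**Figure D2:**
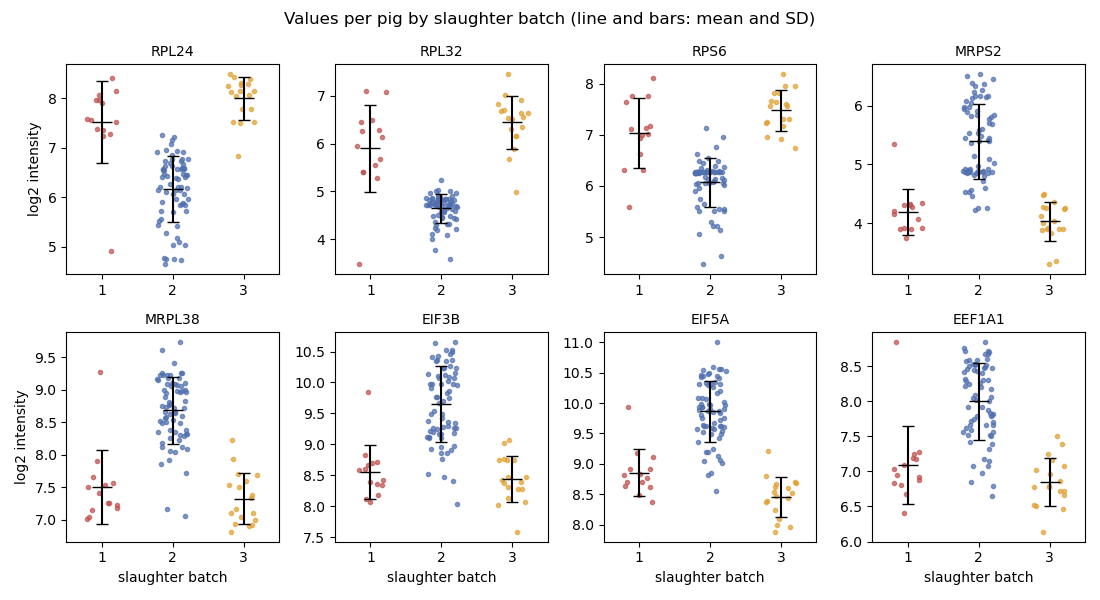
Log2 intensity (vertical axis) of each pig by slaughter batch (horizontal axis; 14, 70 and 18 pigs) for 8 genes, with the mean as a line and the SD as bars. In RPL24 and RPL32, 17 of 18 pigs of batch 3 lay above all pigs of batch 2, and pig 70 is the lowest or highest pig of batch 1 in each panel.

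Among the mitochondrial ribosomal proteins, MRPS2, of the small subunit, had the largest difference. Its values were 3.74, 4.18 and 5.34 in batch 1, 4.23, 5.40 and 6.54 in batch 2, and 3.30, 4.02 and 4.50 in batch 3. It was lower in both contrasts, with -1.11 ± 0.17 in batch 1 (adjusted p = 6.27e-09, limma) and -1.25 ± 0.15 in batch 3 (adjusted p = 3.59e-12). No pig of batch 1 or 3 reached the median of batch 2, and 11 of the 18 in batch 3 were below its lowest pig.

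MRPL38, of the large subunit, had medians of 7.33, 8.73 and 7.24 in batches 1, 2 and 3. Its differences were -1.10 ± 0.15 and -1.25 ± 0.13, and pig 70, at 9.27, was the only pig of batch 1 above the batch 2 median. Without pig 70 the batch 1 difference of MRPL38 was -1.25. MRPS26 had medians of 8.26, 9.22 and 7.89, and 13 of 14 and 16 of 18 pigs lay below every pig of batch 2. MRPS34 had differences of -1.03 ± 0.15 and -1.10 ± 0.14.

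A few mitochondrial members went the other way. MRPL1 had medians of 9.28, 8.65 and 9.41, and was higher by 0.64 ± 0.09 and 0.74 ± 0.09. MRPL33 was higher in batch 3 (1.19 ± 0.18, adjusted p = 3.03e-09, limma) and not past the test in batch 1 (0.25 ± 0.19, adjusted p = 0.229). The contrast of batch 3 with batch 1, added later, gave 0.94 ± 0.22 for MRPL33 (adjusted p = 0.00192). In that contrast 6 members (12.5%) were higher and 2 (4.17%) lower, beside 8.59% and 8.18% of all probes.

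Most initiation factors were lower in batches 1 and 3 than in batch 2. EIF5A, which carries the modified residue hypusine, had values of 8.37, 8.80 and 9.94 in batch 1, 8.56, 9.89 and 11.01 in batch 2, and 7.88, 8.49 and 9.21 in batch 3. Its differences were -0.97 ± 0.14 in batch 1 and -1.36 ± 0.13 in batch 3 (adjusted p = 1.16e-16, limma), and those of its second probe were -1.91 and -3.14. EIF3B, a core subunit of eIF3, had -0.998 ± 0.164 and -1.10 ± 0.15.

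EIF4G1, the scaffold of the cap-binding complex, had medians of 9.67, 10.63 and 9.44 in batches 1, 2 and 3, with differences of -0.82 ± 0.11 and -1.06 ± 0.10. EIF3D had -0.90 ± 0.09 and -0.74 ± 0.08. In contrast EIF5B, the GTPase that joins the subunits, was higher by 0.45 ± 0.10 and 0.90 ± 0.09, and 15 of 18 pigs of batch 3 lay above every pig of batch 2. EIF4H, a helper of the eIF4A helicase, was higher by 0.52 ± 0.12 and 1.11 ± 0.11.

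EEF1A1 delivers the charged tRNA to the ribosome. Its values were 6.40, 6.99 and 8.85 in batch 1, 6.65, 8.05 and 8.84 in batch 2, and 6.13, 6.79 and 7.50 in batch 3. Its differences were -0.85 ± 0.16 in batch 1 (adjusted p = 1.51e-06, limma) and -1.08 ± 0.15 in batch 3 (adjusted p = 1.23e-10). The highest pig of batch 1 was pig 70, and without it the batch 1 difference was -0.99. The probe is of a kind that may match several transcripts, so signal of a near-identical copy may be included.

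The synthetases also split. DARS, which charges the tRNA for aspartate, was higher by 1.31 ± 0.14 and 1.44 ± 0.13, and 12 of 14 and 15 of 18 pigs were above every pig of batch 2. NARS, for asparagine, was higher by 0.49 ± 0.11 and 0.82 ± 0.11. VARS, GARS, HARS and SARS, for valine, glycine, histidine and serine, were lower in both contrasts, VARS with -1.02 ± 0.14 and -0.91 ± 0.13. FARS2, the mitochondrial phenylalanine synthetase, had 0.23 ± 0.14 and 0.17 ± 0.13 and did not pass.

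Of the regulators, EEF1AKMT1, a lysine methyltransferase that acts on EEF1A, had -0.58 ± 0.10 and -0.84 ± 0.09. EIF2AK2, the kinase PKR that phosphorylates eIF2 and is induced by interferon, was higher in batch 1 (0.56 ± 0.15, adjusted p = 0.000629, limma) and had 0.01 ± 0.14 in batch 3. EIF4EBP2, an inhibitor of the cap-binding protein, did not pass in either.

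Other genes of the pathway were taken from fixed lists. The list for mTORC1 signalling and the control of translation had 7 measured genes, MYC and FBXO32 among them. Of these, 6 were lower and 0 higher in each contrast, beside 41.5% and 45.3% of all probes lower. AKT1S1, a subunit of mTORC1, had -1.53 ± 0.17 and -1.81 ± 0.15. All 3 measured factors outside the symbols, DHPS, TUFM and AIMP2, were lower in both. FAU and NACA were the 2 measured genes of a list of other mRNAs that begin with a pyrimidine run like those of ribosomal proteins. Both were lower in both contrasts, while 9 of the 13 cytosolic members were higher in both. FAU, whose product contains a cytosolic ribosomal protein, had -0.68 and -1.08, and NACA had -1.63 and -1.61. Of 8 nuclear-coded oxidative phosphorylation genes, 5 were lower and 2 higher in batch 1, and 6 and 2 in batch 3.

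Several measures moved with the batches. The difference between the 5-prime and middle actin control probes, a sign of how complete the cDNA was, averaged -1.28 ± 0.30 (SD, n = 14) in batch 1, -0.80 ± 0.29 (n = 70) in batch 2 and -1.32 ± 0.43 (n = 18) in batch 3. The 18S ribosomal RNA control averaged 4.71, 3.88 and 4.49. The other ribosomal RNA controls were not alike. A 28S probe averaged 10.2, 9.14 and 9.04, another 28S probe 9.91, 9.23 and 9.68, and the 5S probe 3.37, 3.05 and 2.96. With the actin difference as a covariate, 42 members differed among batches, beside 76.9% of all probes. The differences of RPL24 were then 1.34 and 1.81, close to those without it. Those of EIF3B shrank to -0.557 and -0.618, those of EEF1A1 to -0.454 and -0.653, and those of MRPS2 to -0.736 and -0.843, all still past the test. Of the 11 muscle fibre genes, 1 was higher and 5 lower in batch 1, and 2 and 5 in batch 3, and the median of their mean level was 12.49, 12.95 and 12.36. Of 8 fibroblast genes, 5 were higher and 1 lower in batch 1, and 3 and 2 in batch 3, with medians of 8.22, 7.73 and 7.97. Of 5 white blood cell genes, 3 were higher and 0 lower in batch 1, and 1 and 2 in batch 3. Of 7 adipocyte genes, 1 was higher and 2 lower in each, and of 8 endothelial genes, 3 were higher and 2 lower in batch 1, and 0 and 4 in batch 3. Over all probes 32.7% were higher and 41.5% lower in batch 1, and 36.2% and 45.3% in batch 3. The part of cell types in the batch differences was not tested, and that of RNA quality only through the actin covariate.

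The actin difference was also set against the members directly, within sex, batch and weight. Per SD of the difference, 14 members (29.2%) rose and 8 (16.7%) fell, beside 27.6% and 25.2% of all probes. EIF3B rose by 0.32 ± 0.04 (adjusted p = 6.57e-09, limma), EEF1A1 by 0.28 ± 0.04 and MRPS2 by 0.27 ± 0.05. The slope was -0.26 ± 0.06 for MRPL33, -0.19 ± 0.06 for EIF4E, the cap-binding protein, and -0.17 ± 0.03 for NARS.

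Between the sexes the differences were small, and most of those past the test were lower in females. In limma with batch and weight, 2 members (4.17%) were higher and 6 (12.5%) lower in females, beside 11.7% and 14.4% of all probes. Without pig 70, 11 members passed, beside 29% of all probes, against 8 members and 26.1% of all probes with it. The added members were MRPL38, MRPS34 and VARS. With all pigs none of the 7 synthetases passed the test, and 1 of them had an unadjusted p under 0.05. The lowest synthetase p belonged to VARS, at -0.22 ± 0.10 (adjusted p = 0.0793, limma). VARS passed without pig 70 (-0.25, adjusted p = 0.0378), with the actin covariate (-0.24, adjusted p = 0.0276), with array weights (adjusted p = 0.0303) and with 2 principal components (adjusted p = 0.00176), and over all its alternatives the adjusted p ran up to 0.117. The second probe of GARS also passed, at -0.30 (adjusted p = 0.0361), while its main probe had -0.14 (adjusted p = 0.15). So did the second probe of RPL23, at -0.32 (adjusted p = 0.0225, limma), while its main probe had -0.03 (adjusted p = 0.853). EEF1A1 had -0.04 ± 0.11.

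EIF4A1, the RNA helicase of the cap-binding complex, differed most. Its lowest, median and highest values were 6.81, 7.84 and 8.85 in the 55 females and 7.04, 8.17 and 10.42 in the 47 males, so the sexes overlapped and the highest pigs were males. Females minus males gave -0.47 ± 0.11 (adjusted p = 0.000599, limma), which is 1.39-fold. The difference of means was -0.47, -0.56 and -0.03 in batches 1, 2 and 3.

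**Figure D3:**
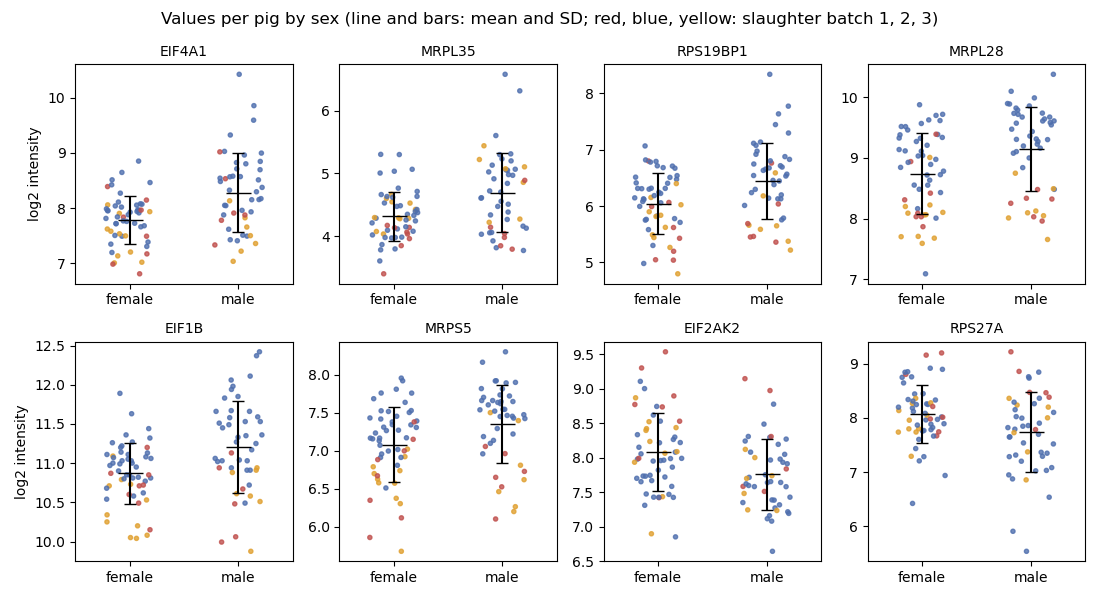
Log2 intensity (vertical axis) of each pig by sex (horizontal axis; 55 females, 47 males) for the 8 genes past the test, with the mean as a line and the SD as bars; colours mark the slaughter batch. The sexes overlap in each panel, and the largest difference, females minus males, is that of EIF4A1 at -0.47.

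MRPL35 ranged from 3.40 to 5.30 in females with a median of 4.29, and from 3.77 to 6.58 in males with a median of 4.70. The difference was -0.36 ± 0.10 (adjusted p = 0.0045, limma), and it was negative in each batch, at -0.15, -0.38 and -0.52. MRPL28 had -0.31 ± 0.10 and MRPS5 -0.21 ± 0.07. For MRPL28 the batch means differed by 0.15, -0.48 and -0.13, so the sign was not shared by batch 1. RPS19BP1, a protein that binds a ribosomal protein, had -0.35 ± 0.10, and EIF1B, a start-codon factor, had -0.28 ± 0.08. In batch 1 the means of EIF1B differed by 0.15 and those of MRPS5 by 0.005, against -0.41 and -0.27 in batch 2 and -0.18 and -0.18 in batch 3. RPS19BP1 had -0.14, -0.47 and -0.05.

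The 2 members higher in females were EIF2AK2 and RPS27A. EIF2AK2 ranged from 6.85 to 9.53 in females with a median of 7.99 and from 6.64 to 9.14 in males with a median of 7.65. It was higher by 0.27 ± 0.10 (adjusted p = 0.0369, limma), with means higher in females by 0.42, 0.25 and 0.47 in the 3 batches, and within batch 2 alone the difference was 0.19 (adjusted p = 0.193). RPS27A was higher by 0.34 ± 0.12 (adjusted p = 0.0333), and its batch means differed by -0.18, 0.49 and 0.13.

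Of 11 measured genes of the amino acid response, which the kinases of eIF2 switch on through ATF4, 1 was higher in females, PSAT1, at 0.53 ± 0.16, and 5 were lower. The lower ones included PPP1R15A, which recruits the phosphatase of eIF2, at -1.12 ± 0.22 (adjusted p = 9.76e-05, limma), and DDIT3 at -0.70 ± 0.19. Of the 7 measured genes on the list for mTORC1 signalling and the control of translation, 0 were higher and 3 lower. These were FBXO32, AKT1 and MYC, with MYC at -0.91 ± 0.21. Over all probes 11.7% were higher and 14.4% lower, and lists of so few genes were not compared with that background by a test. FAU and NACA, whose mRNAs begin with a pyrimidine run like those of ribosomal proteins, were both lower in females.

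Carcass weight moved no member past the test. In limma with sex and batch, 0 members and 0% of probes had an adjusted p under 0.05, and 4 members and 10.8% of probes had an unadjusted p under 0.05. The smallest p among members were those of RPL9, of the large subunit, with -0.13 ± 0.04 per 10 kg (adjusted p = 0.337), and of MRPL14, with 0.10 ± 0.04 (adjusted p = 0.434). Without sex and batch in the model 38 members moved with weight, beside 62.6% of all probes, and mean weight differed among the batches as given above.

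No difference between the sexes was found to depend on batch or weight. In limma, 0 members and 0% of probes passed for sex by batch, where 2 members, MRPL54 and MRPS2, and 7.8% of probes had an unadjusted p under 0.05. For sex by weight 0 members and 0% of probes passed, and 3 members, RPL9, EIF4H and SARS, and 5.36% of probes did at an unadjusted p under 0.05.

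The study centred on fatty acid metabolism, and ELOVL6, the elongase that acts on palmitic acid, gave a link to it. Per SD of ELOVL6, within sex, batch and weight, 2 members (4.17%) rose and 4 (8.33%) fell, beside 12.3% and 8.46% of all probes. The slope was -0.15 ± 0.04 for EIF1B (adjusted p = 0.00162, limma), -0.14 ± 0.04 for MRPL54, -0.14 ± 0.05 for EEF1E1, a scaffold of the synthetase complex, and -0.13 ± 0.03 for MRPS5. RPS25 rose by 0.15 ± 0.05 and FARS2 by 0.12 ± 0.04. With the actin difference as a covariate these rises were 0.13 and 0.11 and no longer passed (adjusted p = 0.071 and 0.086, limma). In the 70 pigs of batch 2 alone 0 members passed in limma, beside 6.2% of all probes. With all pigs 20.7% of all probes passed, so fewer calls in batch 2 alone were general. Of the members, 5 had an unadjusted p under 0.05 in batch 2 alone. Of 7 adipocyte genes 3 rose with ELOVL6 and 0 fell, and of 8 fibroblast genes 6 rose and 0 fell, and their part in these values was not tested.

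Correlations among the members were computed on residuals after sex, batch and weight, across the 102 pigs. Of 1128 pairs, 307 (27.2%) were positive and 200 (17.7%) negative at an adjusted p under 0.05 from 100000 permutations. Pairs of all genes with a symbol that reached the same size of r, 0.23, made up 24.5% positive and 17.1% negative, so the number of correlated member pairs was near the background.

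**Figure D4:**
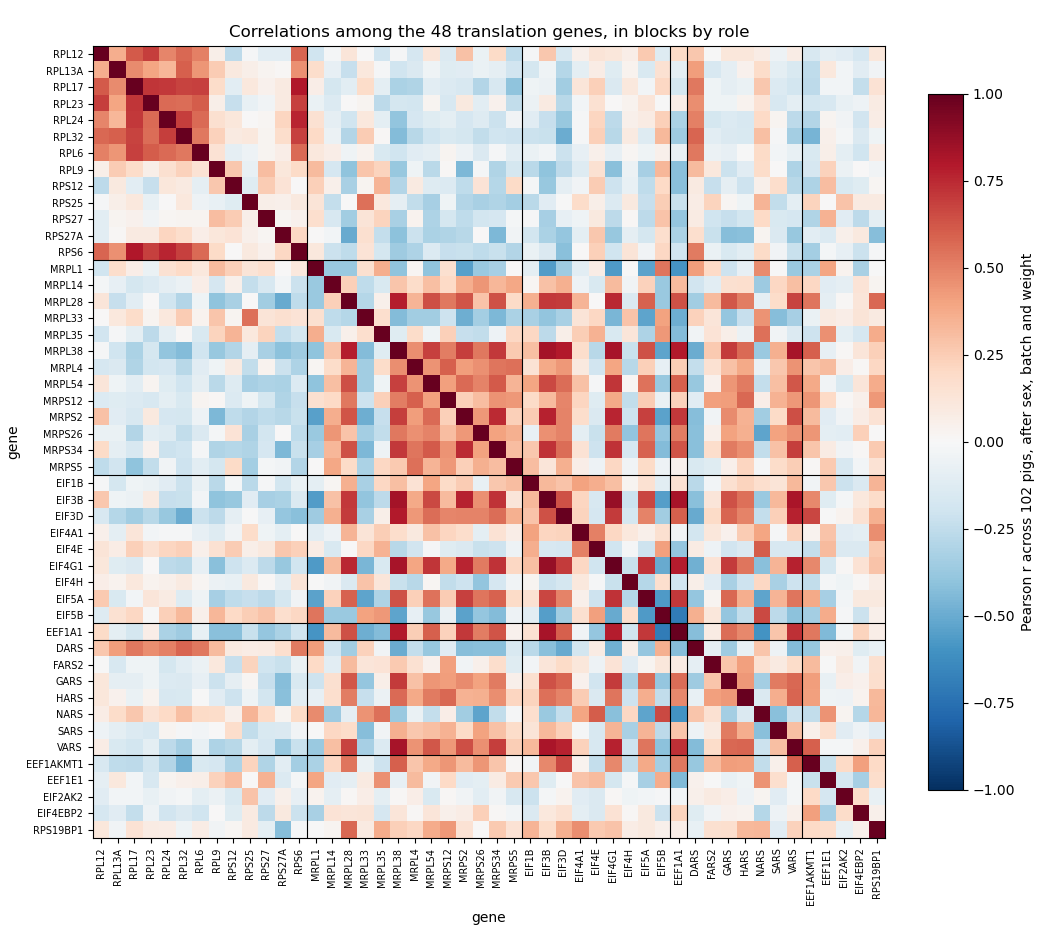
Pearson r across 102 pigs between each 2 of the 48 genes (both axes), after sex, batch and carcass weight, with lines between roles; red is positive and blue negative. A red block of 8 cytosolic ribosomal proteins (r from 0.34 to 0.80) and a red set joining mitochondrial ribosomal proteins with EIF3B, EIF4G1, EEF1A1 and VARS can be seen.

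The pairs fell into sets that did not follow the roles fully. EIF3B and EIF4G1 had the highest r at 0.87 (rho 0.87, permutation p = 1e-05 for both, the smallest the permutations can give, adjusted p = 6.13e-05 for r), with 0.85 without the 2 pigs farthest from the median. It was 0.88, 0.87 and 0.90 within batches 1, 2 and 3. MRPL38 followed EIF3B at 0.83, EIF4G1 at 0.83 and VARS at 0.82, and EIF3B followed EEF1A1 at 0.83 and VARS at 0.81. With 2 principal components as covariates, 4 of these 6 pairs were no longer called. EIF3B with EIF4G1 was then 0.22 (adjusted permutation p = 0.104), MRPL38 with EIF3B 0.17, MRPL38 with EIF4G1 0.16 and EIF3B with EEF1A1 0.14, whereas MRPL38 with VARS kept 0.42 and EIF3B with VARS 0.32. With the second probe of EIF4G1 its r with EIF3B was 0.57 and with MRPL38 0.56.

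Among the 13 mitochondrial ribosomal proteins, 62 of 78 pairs (79.5%) were called, 44 positive and 18 negative, beside the 24.5% and 17.1% over all gene pairs. A set of 8 of them, chosen after the correlations were seen, had r from 0.24 to 0.78 with a median of 0.52. It held MRPL28, MRPL38, MRPL4, MRPL54, MRPS12, MRPS2, MRPS26 and MRPS34. Among the 13 cytosolic ribosomal proteins 35 of 78 pairs (44.9%) were called, near that background in number, and 33 of them were positive.

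The positive cytosolic pairs lay mostly in 8 genes, also chosen after the correlations were seen, RPL12, RPL13A, RPL17, RPL23, RPL24, RPL32, RPL6 and RPS6. Their 28 pairs had r from 0.34 to 0.80 with a median of 0.58. The other 5 cytosolic members had r from -0.26 to 0.26 with these 8. DARS had r from 0.27 to 0.58 with the 8, although it is a synthetase. Between cytosolic and mitochondrial ribosomal proteins, 54 of 169 pairs (32.0%) were called, a smaller share than over all gene pairs, and 47 of these were negative.

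The most negative pair was EIF5B with EEF1A1, at r = -0.70 (rho -0.69, permutation p = 1e-05 for both, adjusted p = 6.13e-05 for r). It was -0.66 without the 2 farthest pigs and -0.89, -0.66 and -0.73 within the batches. EEF1A1 with NARS had -0.60, MRPL1 with EEF1A1 had -0.59 and MRPL1 with EIF4G1 had -0.57. With 2 principal components as covariates none of these 4 pairs was called: EIF5B with EEF1A1 had -0.18 (adjusted permutation p = 0.207), MRPL1 with EEF1A1 -0.068, MRPL1 with EIF4G1 -0.071 and EEF1A1 with NARS 0.043. MRPL1 with the second probe of EIF4G1 had -0.22 (adjusted permutation p = 0.0539). Per SD of the actin difference EEF1A1 and EIF4G1 rose, by 0.28 and 0.17, while EIF5B, NARS and MRPL1 had slopes of -0.12, -0.17 and -0.08, all past the test. The part of that difference in the correlations was tested only as a covariate. With the actin difference as a covariate 499 pairs were still called, and with 2 principal components as covariates 179 were.

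EIF2AK2 stood outside these sets and went with the interferon-induced genes. It had 1 called pair among the other 47 members, with RPS25 at r = 0.29, and positive called pairs with all 11 measured interferon-induced genes. The family held 1056 pairs of members with partners from the interferon and amino acid lists, of which 97 were positive and 70 negative. With RSAD2, an antiviral enzyme, r was 0.80 (rho 0.79, permutation p = 1e-05 for both, adjusted p = 0.00022 for r), with 0.78 without the 2 farthest pigs and 0.94, 0.78 and 0.70 within the batches.

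Further partners were IFIT3 at 0.78, MX1 at 0.76 and IFIT1 at 0.73, and the lowest of the 11 was IFIT2 at 0.29, which was 0.08 within batch 2. Of the 11 interferon genes, 10 were higher in batch 1 and 5 in batch 3, beside 32.7% and 36.2% of all probes. The batch 3 count of higher genes was thus near the background. Of the 11, 0 were lower in either contrast, beside 41.5% and 45.3% of all probes. RSAD2 was higher by 1.74 ± 0.34 in batch 1. The median level of the 11 genes was 6.18, 4.92 and 5.82 in batches 1, 2 and 3. By sex 1 of the 11 was called, RSAD2, higher in females by 0.59 ± 0.23 (adjusted p = 0.0457, limma). Over all probes 11.7% were higher and 14.4% lower in females.

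**Figure D5:**
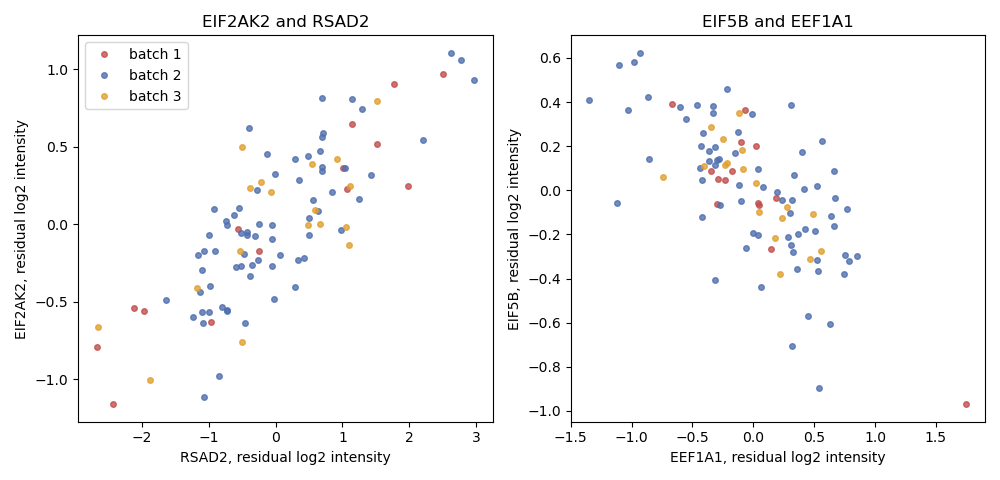
Residual log2 intensity after sex, batch and carcass weight for 102 pigs, each a point coloured by slaughter batch: EIF2AK2 (vertical axis) against RSAD2 (horizontal axis), r = 0.80, and EIF5B (vertical axis) against EEF1A1 (horizontal axis), r = -0.70. The pig at the lower right of the second panel belongs to batch 1.

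With the amino acid response genes the members had pairs of both signs. NARS and ASNS, the enzyme that makes asparagine, had r = -0.54 (rho -0.52, permutation p = 1e-05 for both), with -0.27, -0.57 and -0.79 within the batches. MRPL33 and SLC3A2, a subunit of amino acid transporters, had r = -0.53. With 2 principal components as covariates these were -0.33, still called, and -0.21 (adjusted permutation p = 0.228), no longer called. Of the 11 amino acid response genes, SLC3A2 and PPP1R15A had the most positive called pairs among the 48 members. SLC3A2 had 17 positive and 9 negative, and PPP1R15A had 17 and 3. Others differed, with 0 and 11 for PSAT1, 0 and 5 for PSPH and 3 and 0 for ATF3. The share of such pairs for genes outside the lists was not computed.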

How the data were processed

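Longissimus dorsi RNA of 102 pigs was measured with 1 array each. Per the labels and the study's methods, the authors used GCOS to generate the data, AffyPLM to check the arrays and BRB-ArrayTools to run GCRMA, whose version was not given. What they deposited is log2 intensity, kept as it is. The authors described a filter for probes with over 20% of values more than 1.5-fold from the median, which 98.0% of probes and 46 of the 48 members met here. Arrays carry no counts, so the number of pigs limits the precision. GCRMA includes a normalization across arrays, so differences are relative to the other probes.

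Of 5493 probes, 44 controls were left out and 5449 tested; 2639 had 1 symbol, 49 several and 2761 none. All 48 members matched RefSeq by identifier. Groups, ages and weights came from the sample labels, and 0 columns of values were left unused. limma 3.58.1 in R 4.3.3 (lmFit, eBayes) fitted sex, batch and weight, two-sided, with Benjamini-Hochberg adjustment over all probes and an adjusted p under 0.05. Pair correlations used 100000 permutations of residuals, two-sided, adjusted within 1128 and 1056 pairs, in Python 3.11.15 (numpy 2.4.6, pandas 2.3.3, scipy 1.17.1, matplotlib 3.10.9). Both were tested on simulated data. Pigs were treated as independent although related, and nothing beyond the separate animals separates their samples.

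The members, lists and tests were chosen with earlier results of these data known. Genes were named by the 6 largest differences in each direction past the test (or the 2 smallest p), the smallest p of each role for sex, batch and weight, the 6 largest and 4 most negative member correlations, the 4 largest and 2 most negative with partners, the extremes of SD, and up to 4 genes a list; other names were chosen after their values were seen. The batch 3 minus batch 1 contrast and the alternatives without pig 70, without the array that correlates least and with another actin probe were chosen after seeing the data. No red blood cell gene was measured, and of the sex-specific genes EIF1AY alone was.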

Additional observations from a re-analysis of the deposited data

How the results depend on the processing

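Values were recomputed under quantile normalization, added covariates, array weights, subsets of pigs or probes and second probes. Of 103 counts, 92 stayed within 1.5 times the main one. Members differing by sex numbered 19 with 2 principal components as covariates, beside 39.1% of all probes. They numbered 14 with array weights (32.5% of all probes) and 14 in batch 2 only (32.4%), against 8 in the main fit (26.1%). For weight 0 became 4 with 2 principal components (4.73% of all probes) and 38 without other covariates (62.6%). For the actin difference 22 became 5 with 2 principal components, while the share of all probes went from 52.8% to 4.33%. For ELOVL6 6 became 0 in batch 2 only, while that share went from 20.7% to 6.2%. Member pairs went from 507 to 179 with 2 principal components and 884 on raw values, and partner pairs from 167 to 73 and 586. With 2 principal components the actin slope changed sign for EIF5B (0.0094), EEF1A1 (-0.018), MRPS2 (-0.00028), MRPS34 (-0.0050), EIF5A (-0.0036) and MRPL38 (-0.055), as did r of EEF1A1 with NARS (0.043). The cause was not tested. Of 894 values of single genes and pairs, 828 kept direction and side of the threshold, 47 no longer passed and 12 newly passed. Among pigs of 179 days or more, with 1 pig left in batch 1, 13 batch 1 differences no longer passed. No paired analysis was possible because each pig has its own number. The alternative with GAPDH control probes was not run, and array signal over background was not used here.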
